A study of Mus musculus with 46 samples.

Results

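The genes described here are the protein-coding genes of a 20-Mb segment of mouse chromosome 6, starting at 85 Mb in GRCm38, that were detected in synovial sarcomas of the hSS1 background. The segment holds 149 protein-coding genes. The rule left out 5 of them by name (Mcm2, Wnt7a, Adamts9, Mitf and Rybp), and 44 had fewer than 10 counts on average in the hSS1 libraries or were not in the table. The 100 remaining genes are the members, out of 56941 genes in that table. The segment was picked from the RNA levels of Cnbp, H1fx, Uba3 and Shq1, which stood together lower in hSS1 tumors with floxed Pbrm1 than in their controls. Values of the members in that comparison are therefore given as a description with no test. Tests of the members are given only for the hSS2 background, which the choice did not use. For genes outside the segment some adjusted p-values of the hSS1 comparison are given. Just inside the count minimum were Prokr1 and Vmn1r43, each with a mean of 11.2 counts, and just outside were Asprv1 with 7.67 and Efcc1 with 7.56.

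RNA was sequenced from 46 bulk mouse tumors, 1 library each. Every mouse carried a human fusion gene at the Rosa26 locus on chromosome 6, switched on by TATCre protein injected into the hindlimb in the second week of life, in a mixed C57Bl/6 and SvJ strain of both sexes, with tumors taken at a few months of age. The hSS2 tumors expressed SS18::SSX2 and comprised 13 control, 8 Pbrm1-fl, 8 Arid1a-fl and 8 Arid1b-fl tumors. The hSS1 tumors expressed SS18::SSX1 and comprised 5 control and 4 Pbrm1-fl tumors. In the floxed groups both alleles of the named gene, which encodes a subunit of a BAF-family chromatin remodeling complex, are floxed. The same Cre that activates the fusion can cut them, and cells that escaped Cre, stroma included, keep an intact gene. In hSS1 Pbrm1-fl tumors the paper reports a smaller loss of Pbrm1 RNA than in hSS2. It proposes that cells with a single cut allele were selected there, which was not tested here. Total counts per library ranged from 10.1 M to 14.1 M in hSS1 and from 10.6 M to 21.3 M in hSS2. Libraries are called replicates of a group. The titles give a mouse number, and the ranges of these numbers coincide with the floxed gene, so the group and whatever the ranges mark cannot be fully told apart. Arid1a was at 229 to 276 CPM in the 8 Arid1a-fl tumors and at 422 to 587 CPM in 12 of the 13 hSS2 control tumors, but at 238 CPM in the library labelled hSS2 control replicate 9.

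Mammalian cells carry each autosome as a pair, and the RNA level of many genes follows the number of gene copies. Tumors often gain or lose a whole chromosome or a part of one, and neighboring genes that share no function then shift together by a similar, modest amount. DNA copy number was not measured in these samples. The members named by the rule work in unrelated processes. Cnbp is a zinc-finger protein that binds nucleic acids and promotes translation. H1fx is a linker histone, which binds DNA between nucleosomes. Uba3 is the catalytic subunit of the enzyme that activates NEDD8 for attachment to cullins, and Shq1 helps assemble H/ACA ribonucleoproteins, which modify ribosomal RNA.

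The bases just before the starts of these 4 genes are shown because the genes were picked as moving together, and a reader can see how far their promoters share letters. Each run is the 120 bases upstream of the RefSeq start in GRCm38.p6, on the minus strand, written 5′ to 3′. Capitals mark matches on either strand to a GC box, which is GGGCGG, or to the ETS motif, which is CCGGAAG; the CCAAT box, the E-box (CACGTG) and the TATA box (TATAAA) were searched as well. The positions are chr6:87851107-87851226 for Cnbp, chr6:87981483-87981602 for H1fx (listed as H1f10), chr6:97205648-97205767 for Uba3 and chr6:100671158-100671277 for Shq1. The H1fx run lies inside the gene as placed by GENCODE M21 (87980421 to 87981637), which starts it farther upstream than RefSeq does.
Cnbp: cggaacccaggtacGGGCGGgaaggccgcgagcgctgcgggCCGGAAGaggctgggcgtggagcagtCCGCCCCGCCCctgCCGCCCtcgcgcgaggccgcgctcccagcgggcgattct
H1fx: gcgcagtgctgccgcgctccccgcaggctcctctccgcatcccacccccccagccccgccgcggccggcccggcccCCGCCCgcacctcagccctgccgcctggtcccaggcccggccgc
Uba3: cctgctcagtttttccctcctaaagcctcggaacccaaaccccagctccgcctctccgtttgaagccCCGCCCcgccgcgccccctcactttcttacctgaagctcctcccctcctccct
Shq1: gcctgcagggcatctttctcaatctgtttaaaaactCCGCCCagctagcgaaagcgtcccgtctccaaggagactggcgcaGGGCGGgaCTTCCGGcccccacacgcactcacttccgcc
Each of the 4 runs held a GC box. Cnbp held 5 matches, Shq1 held 3, and H1fx and Uba3 held 1 each. Shq1 and Cnbp also had an ETS motif, and none had a CCAAT box, an E-box or a TATA box in this window. In the longer RefSeq window of 300 bases around the start, 61 of the 86 members matched to it (70.9%) held a GC box on either strand, against 46.3% of 17492 protein-coding promoters. The ETS motif was in 13.95% of the matched members and 11.9% of all promoters, the CCAAT box in 40.7% and 39.03%, the E-box in 6.98% and 7.90%, and the TATA box in 4.65% and 13.3%. The members had passed the count minimum and the full set of promoters had not, so the sets also differ in expression. The part of expression in these differences was not tested. These are matches of letters, not sites of binding.

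In hSS1 tumors all 4 genes had lower levels in every Pbrm1-fl tumor than in every control tumor. Levels are in CPM (read counts relative to library size, after TMM scaling by the trimmed mean of M-values). Cnbp (chromosome 6, 87842615 to 87851106) stood at 141, 169, 151 and 157 CPM in the 4 Pbrm1-fl tumors and at 309, 283, 241, 264 and 289 CPM in the 5 control tumors. The groups were well apart, with a log2 fold change of -0.84 (SE 0.11). H1fx (chromosome 6, 87980421 to 87981637) stood at 24.7, 27.5, 40.9 and 35.9 CPM against 83.0, 68.7, 95.3, 107 and 76.95 CPM, a log2 fold change of -1.42 (SE 0.20). H1fx had the widest gap of the 4, and its reads may be misassigned, since Gm47286 overlaps it on the same strand.

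Uba3 (chromosome 6, 97183670 to 97205647) stood at 57.2, 67.3, 60.4 and 58.5 CPM in the Pbrm1-fl tumors and at 96.9, 97.0, 109, 102 and 123 CPM in the control tumors, a log2 fold change of -0.79 (SE 0.11). The floxed tumors lay within a narrow band, 60.9 ± 4.47 CPM (SD, n = 4). Shq1 (chromosome 6, 100568256 to 100671157) stood at 10.1, 9.05, 11.8 and 8.63 CPM against 24.9, 21.9, 21.6, 18.5 and 22.8 CPM, a log2 fold change of -1.15 (SE 0.17). Pbrm1 itself, on chromosome 14, is the check on the labels. It stood at 209, 252, 102 and 226 CPM in the floxed and at 275 to 373 CPM in the control hSS1 tumors. The floxed tumor with the least Pbrm1, replicate 3, was not the lowest for any of the 4 genes.

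In the hSS2 background none of the 4 genes differed between a floxed group and control by edgeR's quasi-likelihood test with Benjamini-Hochberg adjustment over all tested genes. H1fx ranged from 16.2 to 93.7 CPM (median 42.5) in the 8 hSS2 Pbrm1-fl tumors and from 12.2 to 44.5 CPM (median 21.9) in the 13 control tumors, with 3 of the 8 above every control. The change on the log2 scale came to 0.74 (SE 0.29, adjusted p 0.109). Shq1 was at 8.83 to 22.0 CPM (median 14.5) in hSS2 Pbrm1-fl and 7.43 to 18.1 CPM (median 10.2) in control tumors, which is 0.39 on the log2 scale (SE 0.21, adjusted p 0.268). Both lay toward higher values, where hSS1 had lower ones. Cnbp had log2 fold changes of -0.07, -0.13 and -0.11 and Uba3 of -0.08, 0.05 and -0.20 in hSS2 Pbrm1-fl, Arid1a-fl and Arid1b-fl, all with adjusted p of 0.558 or more. A p-value that misses the threshold does not show that the groups were alike.

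**Figure D1:**
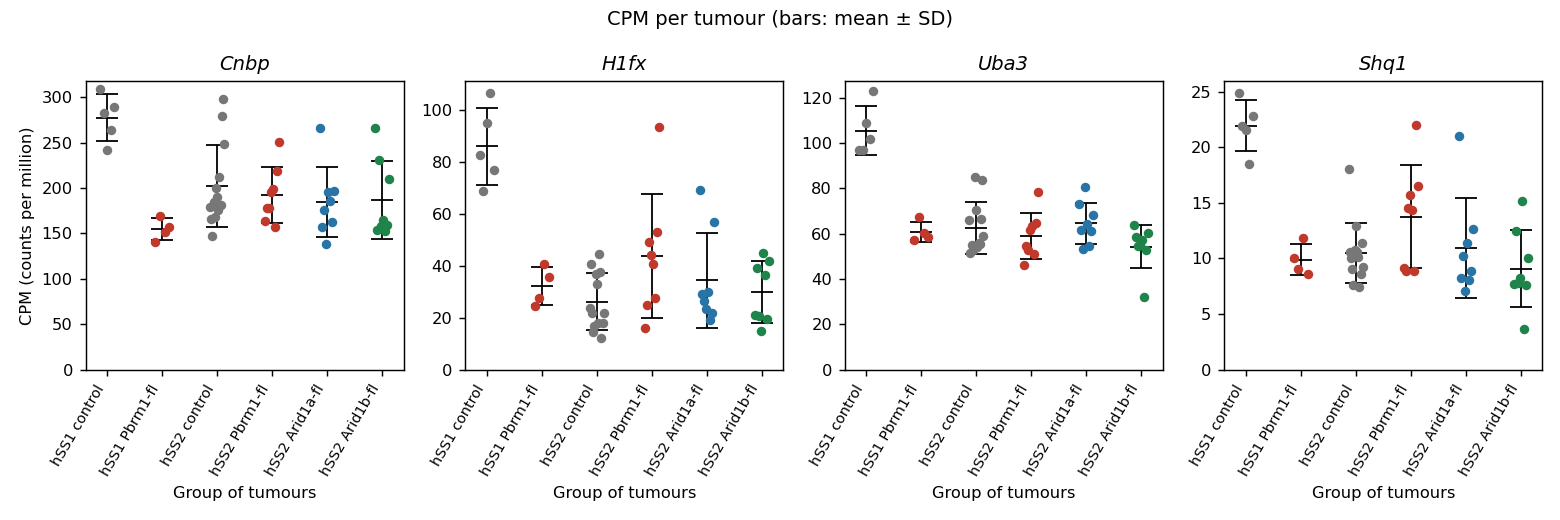
CPM of Cnbp, H1fx, Uba3 and Shq1 (vertical axes, from 0) in each tumor of the 6 groups, with points for tumors and bars for mean ± SD. The 4 hSS1 Pbrm1-fl tumors lay below all 5 hSS1 control tumors for each gene, while the hSS2 groups overlapped. The 2 tables were scaled separately.

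For 3 of these genes the mean of the hSS1 Pbrm1-fl tumors, and not that of the hSS1 control tumors, was close to the mean of the hSS2 control tumors. H1fx was at 86.1 ± 15.003 CPM (SD, n = 5) in hSS1 control, 32.2 ± 7.47 CPM (SD, n = 4) in hSS1 Pbrm1-fl and 26.2 ± 10.9 CPM (SD, n = 13) in hSS2 control tumors. Uba3 was at 105.4 ± 10.9, 60.9 ± 4.47 and 62.3 ± 11.4 CPM in the same order, and Shq1 at 22.0 ± 2.32, 9.89 ± 1.42 and 10.5 ± 2.73 CPM. Single hSS2 floxed tumors reached the hSS1 control range for H1fx (93.7 and 69.3 CPM) and Shq1 (22.03 and 21.04 CPM), and none did for Uba3. Cnbp was at 277 ± 25.7, 155 ± 11.98 and 202 ± 45.6 CPM. The tables were scaled separately, so the fusion and the table cannot be told apart in a level set across them.

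Of the 100 members 96 passed the filter on low counts in hSS1. Emx1, Vmn1r43, Lmod3 and Cntn3 did not. The log2 fold change was negative in 81 of the 96, with a median of -0.46 and quartiles of -0.80 and -0.20. Among all 17786 tested genes the median was 0.01 and 48.9% were negative. All 4 floxed tumors lay below all 5 control tumors in 29 of the 96 members, where 3.54% of all tested genes did so. They lay above all control tumors in 1 member, against 3.28% of all tested genes. Since the members were picked in this comparison, these shares describe them and support nothing. In 53 members every floxed tumor lay below the control mean, and in 2 none did, which likewise only describes them. The same count was not made over all tested genes.

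**Figure D2:**
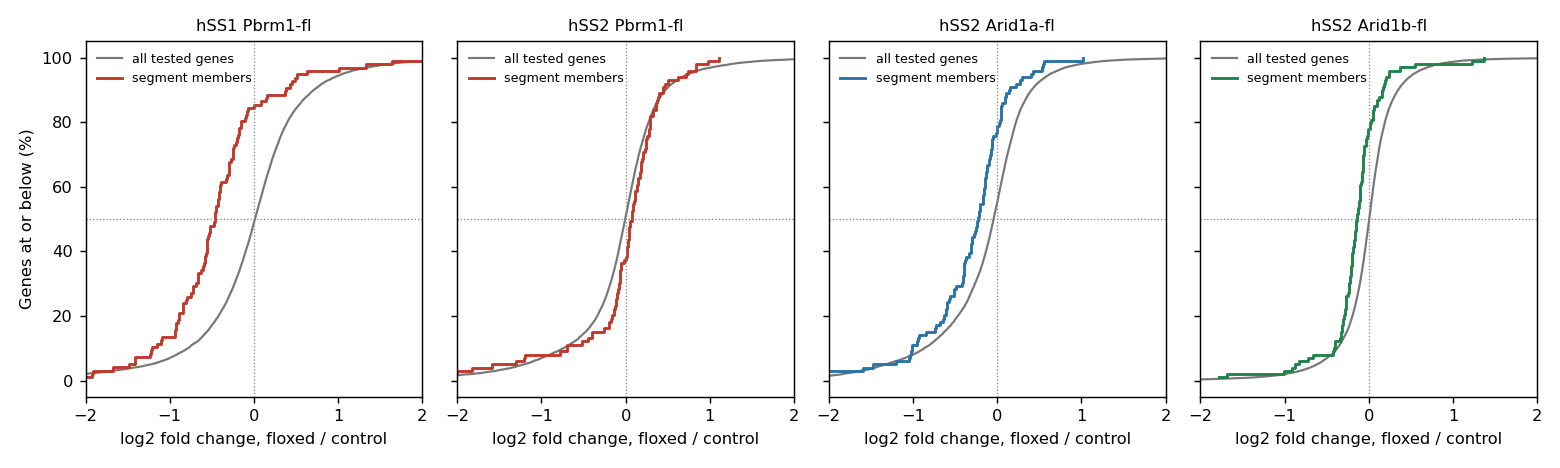
Cumulative share of genes (vertical axis, %) by log2 fold change, floxed over control (horizontal axis, drawn from -2 to 2), for the members (colored) and all tested genes (gray) in the 4 comparisons. The curve of the members lies to the left of that of all genes in hSS1 Pbrm1-fl (medians -0.46 and 0.01), by less in hSS2 Arid1a-fl (-0.23 and -0.04) and Arid1b-fl (-0.14 and 0.00), and slightly to the right in hSS2 Pbrm1-fl (0.07 and -0.00). Of the members 2, 3, 3 and 0 lie beyond the axis, from hSS1 Pbrm1-fl to hSS2 Arid1b-fl.

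The lower values ran across members of every role. All 12 members that handle RNA or act in translation were negative in hSS1, with a median log2 fold change of -0.82. Among them were the spliceosome genes Snrpg (-0.93, SE 0.18) and Lsm3 (-0.93, SE 0.17) and the RNA-binding genes Pcbp1 (-0.55, SE 0.15) and Tia1 (-0.58, SE 0.13). All 9 chromatin and transcription members were negative (median -0.56), including Ruvbl1 (-0.90, SE 0.14), an ATPase of several remodeling complexes that also serves H/ACA assembly, and Xpc (-0.56, SE 0.14), which recognizes DNA damage. All 5 genes of ubiquitin and NEDD8 conjugation were negative (median -0.34).

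Genes of secretion and membrane traffic were negative in 11 of 12 (median -0.41), among them Rab7 (-0.43, SE 0.16), a GTPase of late endosomes, and the exception was the coatomer gene Copg1 (0.16, SE 0.27). Metabolic and mitochondrial members were negative in 8 of 11 (median -0.47), for example Nfu1 (-0.57, SE 0.13), which supplies iron-sulfur clusters. Members of matrix, adhesion and signaling varied more, with 12 of 16 negative and values from -4.05 to 1.63. The 31 other tested members were negative in 24.

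The size of the difference was tighter for well-expressed members. With 1000 or more counts on average, 25 of 28 members were negative, with a median of -0.54 and quartiles of -0.74 and -0.42. With 10 to under 100 counts, 11 of 18 were negative, with a median of -0.18 and quartiles of -0.91 and 0.48. Between these, 45 of 50 were negative (median -0.45). The 32 tested members that overlap another gene on the same strand, whose reads may be misassigned, had a median of -0.46 and the 64 without such an overlap -0.47. Along the segment the median was -0.40 over 52 members at 85 to 90 Mb, -0.54 over 25 at 90 to 95 Mb, -0.68 over 14 at 95 to 100 Mb and -0.80 over the last 5.

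Among the members with the most negative values, some groups overlapped and some did not. Add2, which encodes beta-adducin of the membrane skeleton, had the most negative log2 fold change (-4.05, SE 1.07). It stood at 0.72 to 0.82 CPM in the 4 floxed tumors, and at 15.8, 24.9, 22.5, 1.00 and 0.96 CPM in the control tumors, so the groups did not overlap but 2 of the controls were close to the floxed level. Tgfa, a ligand of the EGF receptor, stood at 0.85, 0.72, 1.33 and 1.98 CPM against 2.66 to 6.17 CPM (-1.93, SE 0.40). For Tgfa too the groups did not overlap.

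Nup210, a nuclear pore gene, ranged from 21.3 to 55.6 CPM in floxed and from 39.2 to 210 CPM in control tumors (-1.92, SE 0.52). The neural adhesion gene Chl1, the last member of the segment, ranged from 14.1 to 94.4 and from 40.1 to 395 CPM (-1.67, SE 0.72). Both overlapped between the groups. The semaphorin receptor Plxna1 (-1.49, SE 0.47), the cap-binding gene Eif4e3 (-1.42, SE 0.32), the cullin adaptor Kbtbd8 (-1.24, SE 0.40), the deacetylase Hdac11 (-1.22, SE 0.28) and the orphan receptor Gpr27 (-1.21, SE 0.90) complete the 10 lowest with H1fx. Spr, the first member of the segment, made a smaller difference (-0.32, SE 0.28).

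At the other end the cilium gene Cfap100 had the most positive value (2.44, SE 0.88), at 4.27, 2.99, 12.6 and 0.45 CPM in floxed and 0.14 to 1.63 CPM in control tumors. The matrix gene Fbln2 (1.63, SE 0.47) stood at 60.1, 181, 118 and 30.6 CPM against 22.1 to 46.4 CPM. In both genes replicate 4 lay within the controls. Mgll (1.33, SE 1.14), a lipase of monoacylglycerols, reached 682 CPM in replicate 3 alone, and Grip2 (1.01, SE 1.03) reached 31.99 CPM in replicate 1 alone. Aldh1l1 (0.63, SE 1.05), an enzyme of folate metabolism, overlapped widely.

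A shift was then computed for each tumor as the median, over the members, of log2 CPM minus the mean of the control tumors of the same table, leaving out the tumor itself where it was a control. It was -0.55, -0.53, -0.50 and -0.53 in the 4 hSS1 Pbrm1-fl tumors, a mean of -0.53 ± 0.02 (SD, n = 4). In the 5 hSS1 control tumors it was 0.03, 0.03, -0.12, 0.06 and -0.04. All 4 floxed tumors lay below all 5 control tumors. For scale, a ratio of 2 to 3 is -0.58 and a ratio of 1 to 2 is -1 on the log2 scale. The number of gene copies was not measured, and whether either ratio applies was not tested. In each floxed tumor 75 to 82 of the 96 members were below the control mean. Over all tested genes the median difference in these tumors was -0.01 to 0.02. From 49 to 58 members lay below every control tumor (51.04% to 60.4%, against 18.03% to 24.6% of all tested genes).

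**Figure D3:**
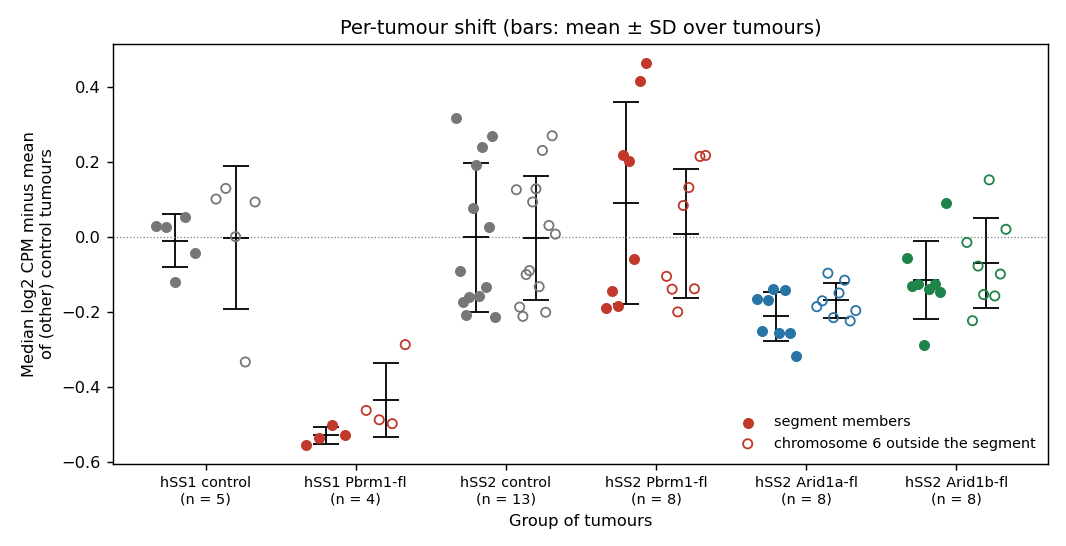
Per-tumor shift on the log2 scale (vertical axis) of the members (filled points) and of the other protein-coding genes of chromosome 6 (open points) in the 6 groups, with bars for mean ± SD over tumors. The 4 hSS1 Pbrm1-fl tumors lie between -0.55 and -0.50 for the members. In hSS2 Pbrm1-fl the tumors spread from -0.19 to 0.46.

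The shift did not stop at the ends of the segment. Over the 571 other protein-coding genes of chromosome 6 with at least 10 counts on average, which the rule did not name but which come from the same comparison, it was -0.46, -0.49, -0.50 and -0.29 in the 4 hSS1 Pbrm1-fl tumors. In the 20 Mb before the segment (79 genes) it was -0.35, -0.37, -0.32 and -0.43, and in the 20 Mb after it (129 genes) -0.54, -0.54, -0.53 and -0.05. Replicates 1 to 3 were thus below the control mean in each of these stretches, though not below control replicate 4 in the stretch before the segment, and replicate 4 was close to the control mean after the segment. Farther on, to the end of the chromosome (123 genes), the values were -0.56, -0.64, -0.48 and 0.02.

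In replicate 4 the level changed near Gt(ROSA)26Sor, the locus that carries the fusion (chromosome 6, 113067428 to 113077333, 8.07 Mb past the end of the segment). This was noticed after the values were seen. Over the 8 Mb before the locus (15 genes) its shift was -0.40, and over the 8 Mb beyond it (75 genes) -0.02. The 15 genes before the locus ranged in median from -0.46 to 0.76 among the control tumors, so the position of the change is only loosely placed. Of the nearest genes with at least 100 counts on average, those before the locus were at -0.73 (Arl8b), -0.76 (Edem1), -1.61 (Lmcd1), -0.66 (Rad18) and -0.75 (Srgap3), and those beyond it at -0.04 (Setd5), -0.43 (Mtmr14), -0.08 (Brpf1), 0.01 (Ogg1) and 0.51 (Camk1). Gt(ROSA)26Sor itself, a noncoding gene, was at 5.60, 4.71, 4.49 and 8.63 CPM in the floxed and 3.36 to 5.65 CPM in the control tumors, highest in replicate 4.

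**Figure D4:**
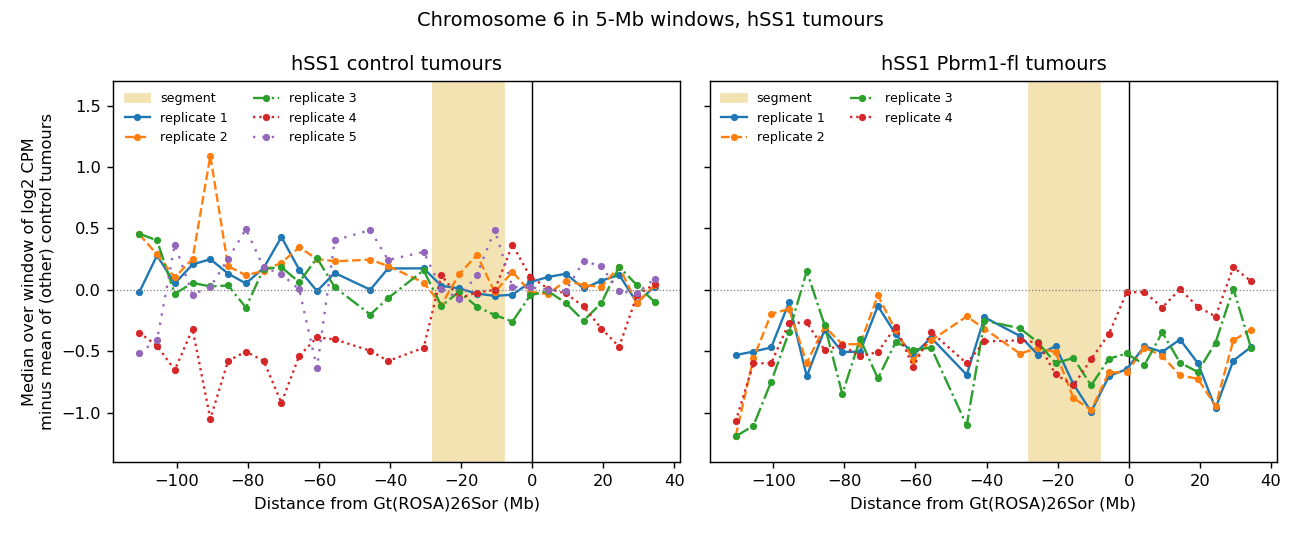
Median difference from the control tumors on the log2 scale (vertical axis) in 5-Mb windows of chromosome 6 with 5 or more genes, by distance from Gt(ROSA)26Sor in Mb (horizontal axis; vertical line at the locus), with control tumors on the left, Pbrm1-fl tumors on the right, 1 line per tumor and the segment shaded. Replicate 4 (red, dotted) is near 0 from the locus on in the right panel, and far below 0 before the segment but between -0.07 and 0.12 within it in the left panel.

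Control replicate 4 of hSS1 also stood apart along this chromosome. Its shift was -0.53 over the genes more than 20 Mb before the segment (238 genes) and -0.53 in the 20 Mb before the segment, but 0.06 over the members. In the first Mb of the segment (13 genes) it was -0.13, and from 86 to 95 Mb (66 genes) 0.11. Without this tumor the median log2 fold change of the members in hSS1 was -0.43, and without Pbrm1-fl replicate 4 it was -0.49, against -0.46 with all tumors.

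Other chromosomes were closer to the controls in the Pbrm1-fl tumors. Among the 19 autosomes chromosome 6 had the lowest median in each of the 4 tumors, at -0.47, -0.49, -0.50 and -0.34. The next lowest was chromosome 1, at -0.18, -0.19, -0.34 and -0.16, where control replicates 2 and 3 stood at 0.41 and 0.34. In the control tumors single chromosomes departed as far, as did chromosome 12 in replicate 3 (0.52) and chromosome 18 in replicate 4 (-0.40).

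**Figure D5:**
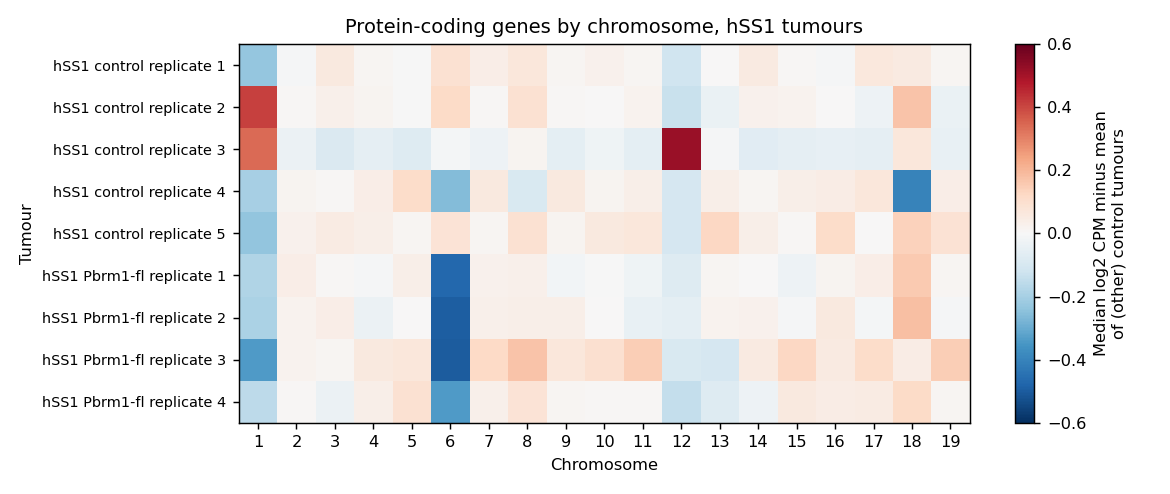
Median difference from the control tumors on the log2 scale (color) of the protein-coding genes of each autosome (horizontal axis) in each of the 9 hSS1 tumors (vertical axis). Chromosome 6 is lowest in all 4 Pbrm1-fl tumors, from -0.50 to -0.34, and chromosome 12 in control replicate 3 has the highest value, 0.52.

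When the 46 libraries were scaled together over 21725 genes and compared with the hSS2 control tumors, the hSS1 groups lay on either side of their mean. The shift of the members was 0.25, 0.33, 0.21, 0.32 and 0.27 in the 5 hSS1 control tumors and -0.18, -0.21, -0.14 and -0.29 in the 4 hSS1 Pbrm1-fl tumors. The hSS2 control tumors themselves covered -0.20 to 0.28, with a median of -0.11. The medians were 0.27 in hSS1 control and -0.19 in hSS1 Pbrm1-fl, so the floxed tumors lay closer to the hSS2 control median. The hSS1 controls were thus near or above the top of the hSS2 control range, and the floxed tumors were in its lower part or below it. The median over all genes was -0.07 to -0.01 in the 9 hSS1 tumors. Fusion and table cannot be told apart here.

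Summed levels of growth and cell type markers overlapped between the hSS1 groups for every list. The 12 proliferation genes all had negative log2 fold changes (median -0.89), and their summed level was 571 to 1477 CPM in floxed and 937 to 2503 CPM in control tumors. Macrophage markers were negative in 9 of 10 (summed 90.7 to 231 and 114 to 284 CPM) and endothelial markers in 6 of 8 (174 to 312 and 215 to 469 CPM). The sums of the other lists were 7.65 to 82.4 and 8.29 to 642 CPM for skeletal muscle, 23.2 to 204 and 27.2 to 1521 CPM for red cells, 3.44 to 53.3 and 1.34 to 12.3 CPM for T cells, 0.10 to 9.59 and 0.36 to 1.44 CPM for adipocytes, and 351 to 799 and 579 to 1020 CPM for tumor markers. In hSS1 edgeR called only Rragd on chromosome 4, lower (-1.29, SE 0.13, adjusted p 0.0460), which is 0.00562% of tested genes, so no gene of these lists was called. Their part in the lower levels of the members was not tested. In bulk tumors fewer cells of a type and less RNA per cell cannot be told apart.

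Genes outside the segment that work with the named genes were examined next; all but Cul1, which lies on chromosome 6 (-0.40, SE 0.21 in hSS1), are on other chromosomes. The 19 other NEDD8 pathway genes, which activate, transfer and remove NEDD8 or are the cullins it modifies, had a median of -0.01 in hSS1, with 10 negative. The 6 H/ACA genes that are no members had a median of -0.44 and were all negative, among them Dkc1 (-0.90, SE 0.22), the pseudouridine synthase, and Nhp2 (-0.81, SE 0.18). The 6 tested linker histone genes were all negative too, with a median of -1.01, from H1f0 (-0.49, SE 0.24) to Hist1h1b (-1.47, SE 0.32). The adjusted p of Dkc1, Nhp2 and Hist1h1b was 0.128, 0.121 and 0.121 by edgeR. H1fx and Shq1 thus had lower values beside lower values in their lists, and Uba3 did not.

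In hSS2 Pbrm1-fl the cullin gene Cul3 was lower (-0.30, SE 0.08, adjusted p 0.0143) and the other 18 NEDD8 pathway genes did not pass the threshold, which is 1 of 19 where 3.95% of all tested genes were lower and 7.35% changed in either direction. In hSS2 Arid1a-fl the ATPase gene Ruvbl2 was higher (0.67, SE 0.18, adjusted p 0.0389), with the 5 other H/ACA genes short of the threshold, where 1.41% of all tested genes were higher and 3.17% changed in either direction. Linker histones had medians of 0.13, 0.59 and 0.20 in hSS2 Pbrm1-fl, Arid1a-fl and Arid1b-fl, with adjusted p of 0.147 or more.

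In hSS2 Pbrm1-fl tumors the members showed no common direction. Of 99 tested members (all but Prokr1), 37 were negative, and the median log2 fold change was 0.07 against -0.00 over all 20083 tested genes. By edgeR's quasi-likelihood test 5 members changed (5.05%), where 7.35% of all tested genes did. Of these, 3 were lower and 2 higher, against 3.95% and 3.4% of all tested genes. Tested members of RNA handling and translation were positive in 10 of 12 (median 0.16) and those of metabolism in 9 of 11 (median 0.28), with no call in either. Skeletal muscle markers were negative in 10 of 10 (median -0.85), macrophage markers in 1 of 10 (0.39) and proliferation genes in 1 of 12 (0.33), and their part was not tested.

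Prickle2, a planar cell polarity gene, ranged from 11.4 to 56.4 CPM (median 26.1) in the 8 hSS2 Pbrm1-fl tumors and from 55.8 to 128 CPM (median 73.5) in the 13 control tumors. All but 1 of the floxed tumors lay below every control, and the difference was -1.59 on the log2 scale (SE 0.25, adjusted p 0.000189). Fam19a1, which encodes a small secreted protein, ranged from 0.05 to 1.28 CPM (median 0.38) against 0.12 to 13.2 CPM (median 4.03), a change of -3.56 (SE 0.74, adjusted p 0.00252). The transcription factor Klf15 fell as well (-1.30, SE 0.38, adjusted p 0.0311), with all 8 tumors below the control median.

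Tgfa rose in hSS2 Pbrm1-fl tumors, opposite to its lower level in hSS1 Pbrm1-fl. It ranged from 5.35 to 18.7 CPM (median 10.3) against 2.60 to 13.6 CPM (median 4.50), with all 8 tumors above the control median and an edgeR estimate of 0.97 on the log2 scale (SE 0.31, adjusted p 0.0452). Tpra1, a membrane protein gene, rose by 0.44 (SE 0.12, adjusted p 0.0214), at 40.1 to 80.0 CPM against 33.3 to 55.2 CPM. For Tgfa the difference between backgrounds was not tested. Prickle2 and Fam19a1 stayed past the threshold under each alternative run, while Tgfa, Tpra1 and Klf15 were lost against control tumors of the same mouse number range and without replicate 7 or 8.

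In hSS2 Pbrm1-fl the tumors fell on both sides of the control mean. The shift of the 13 control tumors themselves covered -0.21 to 0.32, and only replicates 7 and 8 of the floxed tumors lay outside that range. The shift of the members was positive in 4 (0.22, 0.20, 0.42 and 0.46 in replicates 4, 5, 7 and 8) and negative in 4 (-0.19, -0.14, -0.18 and -0.06 in replicates 1, 2, 3 and 6). No tumor was near -0.53. The rest of chromosome 6 had the same sign as the members in all 8, at 0.09 to 0.22 in the first 4 and at -0.20 to -0.10 in the others.

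In hSS2 Arid1a-fl tumors most members stood modestly lower than in control. The log2 fold change was negative in 78 of 99, with a median of -0.23 against -0.04 over all genes. By edgeR's test 9 members were lower and 0 higher, where 1.76% of all tested genes were lower, 1.41% higher and 3.17% changed in either direction. The shift was negative in all 8 tumors, from -0.32 to -0.14, as it was over the rest of chromosome 6. It was also negative in 7 of the 13 control tumors, down to -0.21, so the ranges overlapped. Chromosome 6 had the lowest median of the 19 autosomes in all 8, and in 6 of the 13 control tumors. Against the control tumors of the same mouse number range alone the median was -0.24. Proliferation genes had positive log2 fold changes in 12 of 12 (median 0.78), with summed levels of 317 to 2227 CPM in Arid1a-fl and 120 to 1571 CPM in control tumors. Negative values were found in 10 of 10 skeletal muscle markers (median -1.33, summed 5.39 to 10007 and 12.6 to 43111 CPM), in 6 of 6 adipocyte markers (-2.99), in 5 of 6 T cell markers (-2.09) and in 8 of 10 macrophage markers (-0.29). Their part in the levels of the members was not tested.

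Lrig1, which restrains EGF-family receptors, ranged from 24.9 to 90.7 CPM (median 56.2) in Arid1a-fl and from 77.4 to 143 CPM (median 109) in control tumors, with 6 of 8 below every control (log2 fold change -1.02, SE 0.22, adjusted p 0.0162). Iqsec1, an exchange factor for ARF GTPases of membrane traffic, ranged from 78.3 to 141 CPM (median 115) against 130 to 222 CPM (median 169), a change of -0.63 (SE 0.13, adjusted p 0.0141). Zxdc, a zinc-finger gene, was below every control in 7 of 8 (-0.51, SE 0.12, adjusted p 0.0185). These 3 were the members with the smallest adjusted p.

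The others called lower were the endosome gene Rab11fip5 (-0.57, adjusted p 0.0332), Klf15 (-1.48, 0.0364), Tgfa (-1.20, 0.0430), Cfap100 (-3.25, 0.0452), the forkhead factor Foxp1 (-0.60, 0.0480) and the vomeronasal receptor Vmn1r43 (-4.83, 0.0495). Cfap100 and Vmn1r43 rest on high values in single control tumors, at most 47.6 and 33.9 CPM, with control medians of 1.05 and 0.33 CPM. Foxp1 overlaps other annotated genes on the same strand, so its reads may be misassigned. None of the 9 stayed past the threshold without Arid1a-fl replicate 8. The library labelled hSS2 control replicate 9 was among the controls, and 5 members were called without it. Its shift of the members was 0.24.

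In the Arid1b-fl group no member passed the threshold by edgeR, where 0.0548% of all tested genes did (0.0299% lower and 0.0249% higher). DESeq2 called 0 as well. By edgeR 10 of the 99 members had an unadjusted p under 0.05, where 6.22% of all tested genes did. The log2 fold change was negative in 77 of 99, with a median of -0.14 against 0.00. The shift was negative in 7 of 8 tumors, from -0.29 to -0.06, and 0.09 in replicate 8. The control tumors covered -0.21 to 0.32. Red cell markers were positive in 5 of 5 (median 4.27), and their part was not tested. In replicate 5 the members were at -0.14 and the 20 Mb after the segment at 0.31. In replicate 6 the members were at -0.12, but the level differed within the segment. In the last 10 Mb of the segment (23 genes) it was -0.94, where control tumors covered -0.41 to 0.52. Between the first Mb and that stretch (69 genes) it was -0.08. Over the 8 Mb before the fusion locus (16 genes) it was -1.28, and over the 8 Mb beyond it (80 genes) -0.09. The cause was not tested.

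Across the 37 hSS2 tumors the members and the rest of their chromosome tended to shift in the same direction. The shift of the members had the same sign as that of the 618 other chromosome 6 genes in 35 of 37 tumors. Chromosome 6 had the lowest or the highest median of the 19 autosomes in 30. For 80 members with at least 100 counts on average, deviations from the group mean correlated with a median Pearson r of 0.24 over 3160 pairs of members. It was 0.17 for pairs of a member with a chromosome 6 gene outside the segment and 0.00 for pairs with a gene of another chromosome. In the same order, r was positive in 74.0%, 68.1% and 50.2% of pairs. These pairs share the same 37 libraries. In the 9 hSS1 tumors, after the group means were removed, the medians were 0.01, -0.02 and 0.01. With 9 tumors single correlations are imprecise.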

How the data were processed

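Bulk RNA sequencing measured 46 mouse tumors. The values are raw read counts per Ensembl gene in separate hSS2 and hSS1 tables that the authors deposited. According to the methods, reads of stranded, ribosomal RNA-depleted libraries were aligned to mm10, with STAR 2.7.11 and featureCounts 1.6.3 named in the submitters' processing notes. The annotation release, strand setting and treatment of multi-mapping reads are not given in the sources used here. Positions and symbols came from GENCODE M21 (GRCm38), which matched 91.3% of the hSS1 identifiers.

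Groups came from the sample titles and genotypes. Counts were filtered (filterByExpr), scaled by TMM and fitted with robust quasi-likelihood models in edgeR 4.0.16 (R 4.3.3), all 37 hSS2 libraries in 1 fit and the 9 hSS1 libraries in another. Tests were two-sided, adjusted by Benjamini-Hochberg over all tested genes, with a threshold of 0.05. The scripts were tested on simulated data. Per-tumor shifts used log2 CPM with a prior count of 2. Depth limits precision mainly for members under 100 counts. The alternatives were DESeq2 1.42.0, its size factors, no filter, control tumors of the same mouse number range, leaving out tumors, another prior count, and, chosen after the chromosome-wide shift was seen, TMM from genes outside chromosome 6.

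The members and gene lists were chosen with earlier results of these data known. Named genes are the 4 that define the segment, members past the threshold in hSS2 (up to 6 in each direction), the 10 lowest and 5 highest in hSS1, the members at each end and next to the count minimum, the targeted gene, Gt(ROSA)26Sor and called partner genes. Examples within a role, Foxp1, Rragd and the genes beside Gt(ROSA)26Sor were named after their values were seen. The scaling of all 46 libraries together was also added after the data were seen. The lists were NEDD8 pathway, H/ACA, linker histones, proliferation, and markers of skeletal muscle, macrophages, endothelium, T cells, red cells, adipocytes and the tumor. Promoter sequences are from RefSeq (GRCm38.p6). No protein sequences were used.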

Additional observations from a re-analysis of the deposited data

Results flagged for a closer look

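Among 100 sets of tumors examined (the segment shift, the shift of the rest of chromosome 6 and the CPM of 18 named genes, in groups of 4 to 10 tumors), 12 had a highest or lowest tumor far from the rest by Dixon's test, which chance marks in about 1 set of 20. In hSS1 the rest of chromosome 6 was at -0.29 in Pbrm1-fl replicate 4, apart from the -0.50 to -0.46 of the other 3 tumors, and at -0.33 in control replicate 4, apart from 0.00 to 0.13. In each of these tumors a part of the chromosome was low, but not the same part. The shift of the members was -0.53 in Pbrm1-fl replicate 4 and 0.06 in control replicate 4. In hSS2 Arid1a-fl, replicate 1 stood at 266 CPM for Cnbp (others 138 to 197) and at 21.04 CPM for Shq1 (others 7.09 to 12.7). In hSS2 Arid1b-fl, replicate 6 had 32.02 CPM of Uba3 (others 52.9 to 63.9), and replicate 4 had 4.51 CPM of Cfap100 (others 0.08 to 1.98) and 6.09 CPM of Vmn1r43 (others 0 to 2.20). In hSS2 Pbrm1-fl, replicate 1 had 139 CPM of Pbrm1 (others 95.03 to 110), 3.21 CPM of Cfap100 (others 0.05 to 1.31) and 56.4 CPM of Prickle2 (others 11.4 to 31.96), and replicate 7 had 1.28 CPM of Fam19a1 (others 0.05 to 0.48). In hSS1 Pbrm1-fl, replicate 3 had 9.48 CPM of Vmn1r43, where the others had 0 to 0.19.

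Tgfa lay on opposite sides of control in the Pbrm1-fl groups of the backgrounds. Every hSS1 Pbrm1-fl tumor lay below its control median and every hSS2 Pbrm1-fl tumor above its own, and the log2 fold changes differed by -2.90 (hSS1 minus hSS2). This difference was not tested, and the hSS1 value took part in the choice of the members.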

How the results depend on the processing

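The median log2 fold change of the members in each comparison moved by less than the spread between control tumors under each alternative. It ranged from -0.50 to -0.46 in hSS1 Pbrm1-fl (leaving out 1 tumor, -0.51 to -0.43), from 0.04 to 0.07 in hSS2 Pbrm1-fl (0.01 to 0.09), from -0.24 to -0.21 in Arid1a-fl (-0.24 to -0.21) and from -0.17 to -0.09 in Arid1b-fl (-0.19 to -0.11). The number of members called was less stable. In hSS2 Pbrm1-fl it was 5, against 3 with control tumors of the same mouse number range, 6 with DESeq2 and 2 to 7 when 1 tumor was left out (2 without replicate 7 or 8). In Arid1a-fl it was 9, against 3 with no filter on low counts, 12 with control tumors of the same range, 11 with DESeq2 and 0 to 13 when 1 tumor was left out. It was 3 without replicate 1, 2, 5 or 7, 5 without replicate 4 or without hSS2 control replicate 9, and 0 without replicate 8. In Arid1b-fl it was 0 under each alternative. The cause was not tested. Over all tested genes hSS2 Pbrm1-fl changed 1476 and 477 with control tumors of the same range, and Arid1a-fl 637 and 1405. These runs tested 20083 genes. With no filter on low counts hSS2 Pbrm1-fl changed 1231 and Arid1a-fl 243 of 40638 genes. With DESeq2 they changed 2247 and 1706 of 40638. The fall to 3 members in Arid1a-fl with no filter thus came with fewer calls over all genes. In hSS1 edgeR called 1 of all tested genes and DESeq2 1229. The per-tumor shifts had means of -0.53 to -0.49 in hSS1 Pbrm1-fl, 0.02 to 0.10 in hSS2 Pbrm1-fl, -0.28 to -0.21 in Arid1a-fl and -0.12 to -0.11 in Arid1b-fl with a prior count of 0.5 or with the mean over members. Of the alternative values of the 4 named genes, 214 were marked the same and 10 as moved. In hSS1 a value was marked as moved if it differed by at least the SD of the segment shift over the control tumors. In hSS2, where none of the 4 genes passed the threshold, the sign had to change as well. H1fx in hSS2 Pbrm1-fl was thus marked the same throughout, though it ranged from 0.48 to 0.86. Cnbp in hSS2 Arid1a-fl was also marked the same throughout, though it ranged from -0.40 to -0.08. Cnbp went from -0.07 to 0.19 in hSS2 Pbrm1-fl with control tumors of the same range and Shq1 from 0.06 to -0.14 in Arid1a-fl without replicate 1. No paired analysis was possible because the labels give mouse numbers and no replicate numbers that groups share. With 4 and 5 tumors, low-count members in hSS1 have wide errors.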

Other observations

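Chromosomes other than 6 also departed from the controls in single tumors. Of the 18 other autosomes, a median beyond 0.3 on the log2 scale was seen for chromosomes 5, 11, 15 and 17 in hSS2 control replicate 1 (0.43 to 0.47), for chromosomes 4 and 14 in hSS2 control replicate 9 (-0.36 and -0.69), for chromosome 4 in Arid1b-fl replicate 6 (-0.57) and for chromosome 1 in Arid1b-fl replicates 2 and 5 (0.37 and 0.38). In hSS1 it was seen for chromosome 1 in control replicates 2 and 3 and in Pbrm1-fl replicate 3 (0.41, 0.34 and -0.34), for chromosome 12 in control replicate 3 (0.52) and for chromosome 18 in control replicate 4 (-0.40).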
